A study of Rattus norvegicus with 2 samples.

Results

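The genes described here are 10 markers of resident tissue macrophages, the long-lived phagocytes that live within an organ: Cd163, Mrc1, Lyve1, Cd68, Cd14, Csf1r, C1qa, C1qb, C1qc and Fcgr2b. They were chosen by name, as the probes whose annotated gene symbol is one of these 10, and the rule itself uses no measured value, although the genes were picked with earlier results of these data known. All 10 were measured, by 16 of the 40012 probes in the table, and they made up 10 of the 15613 genes with a symbol. Each of 2 samples of rat heart (heart-1 and heart-2, untreated and not cultured) was hybridised on a 2-colour Agilent microarray. Heart RNA carried the dye Cy3. The Cy5 channel of each array held the same control RNA, mix1, a mixture of cultured rat bone marrow cells and cultured rat primary ear fibroblasts. The labels give neither strain nor age and do not say whether the hearts came from separate animals. The p-values therefore reflect the spread between 2 samples alone, partly pooled over all genes, and that spread may be technical.

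Each value below is a log2 ratio, heart over mix1, so that 1 is a 2-fold difference, 0 is an equal level, and a gene's value is the mean over its probes. Base 2 was inferred from the values; read as natural logs, each log2 ratio and fold would be larger, with Lyve1 at 7.46. The series text speaks of heart compared with mix1, and the sign of the deposited ratio is not stated. Positive values were read as higher in heart, which is likely and not certain: all 15 genes of a cardiac sarcomere list were positive (median 5.95) and all 10 of a fibroblast list negative (median -4.86). Array 2 stood apart in genes of lung epithelium, and each marker is therefore given on each array. Mix1 was hybridised only as the shared control, so its own spread does not enter the test, and without a dye swap the bias of a probe toward a dye stays in its ratio. No spot intensities were used, so the signal above background is unknown, and the number of arrays limits the precision.

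Macrophages of the heart lie between the muscle cells and around the vessels, where they clear dying cells and debris. They depend on the growth factor receptor encoded by Csf1r, take up ligands through scavenger and lectin receptors, secrete the complement starter C1q and bind antibody through Fc receptors. Cultured bone marrow, a part of mix1, can also give rise to macrophages. In bulk RNA, fewer cells of a type and less RNA per cell cannot be told apart.

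Most of the markers were higher in heart, and they were far from moving together. In limma's moderated test against 0, with p-values adjusted over all genes and a threshold of 0.05, 7 of the 10 were higher in heart, where 31.4% of all genes were, 2 were lower, where 41.5% were, and 1 did not pass. Lyve1 stood at the top and Cd14 at the bottom, 8.98 log2 units apart. The median of the 10 was 0.71, beside -0.09 over all genes. At a threshold of at least 2-fold as well, 4 genes were higher in heart, where 16.9% of all genes were, and 2 lower, where 19.5% were; the other 3 of the 7 higher genes, Mrc1, C1qa and Fcgr2b, differed by less. Mrc1, at 0.97, lay at the edge of that threshold and passed it at 1.03 with the arrays centred and at 1.40 as natural logs. The adjusted p of the 9 called genes lay between 0.0012 and 0.00995 (limma, n = 2 arrays).

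**Figure D1:**
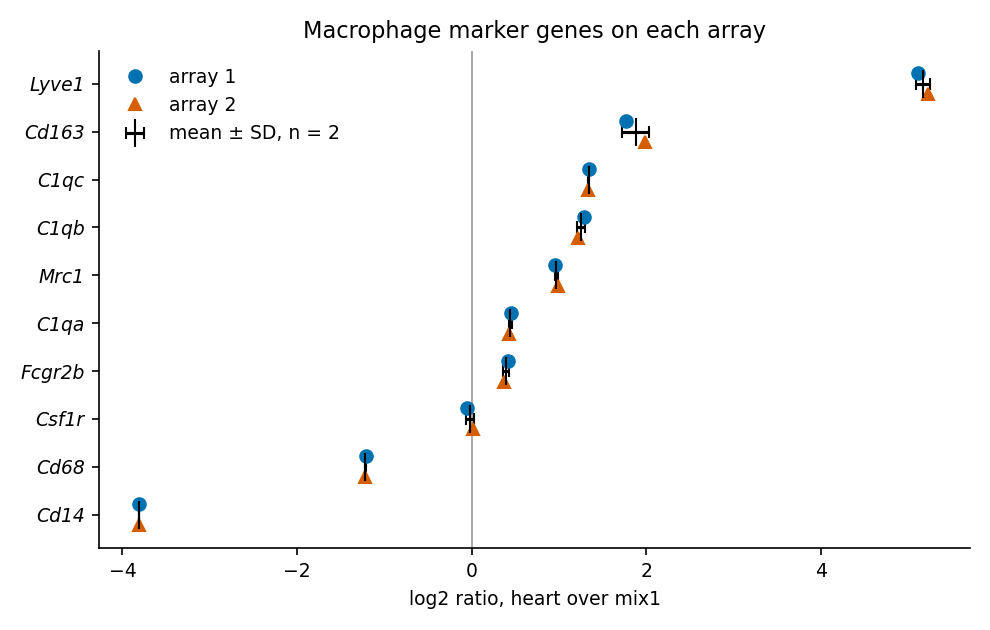
Log2 ratio of heart over mix1 (horizontal axis) for each of the 10 macrophage marker genes, with array 1 as circles, array 2 as triangles and the mean ± SD of the 2 arrays as black bars. The arrays lie close together for every gene, from Cd14 at -3.81 to Lyve1 at 5.17, with Csf1r at -0.02.

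Among the uptake receptors, Lyve1, a receptor for the matrix sugar hyaluronan that is found on subsets of tissue macrophages and on lymphatic endothelium, was at 5.11 on array 1 and 5.23 on array 2. Both arrays were thus far above 0, and the mean of 5.17 ± 0.08 (SD, n = 2) was a 36.0-fold difference (limma, adjusted p 0.0012), the 169th highest of all genes. Cd163, the scavenger receptor that takes up haemoglobin bound to haptoglobin, was at 1.77 and 1.99, with a mean of 1.88 ± 0.16 or 3.67-fold (adjusted p 0.00323). It had the widest gap between arrays among the 10 genes, 0.22, with array 2 the higher. Mrc1, the mannose receptor, which binds sugars on microbes and on the body's own glycoproteins, was at 0.96 and 0.98, with a mean of 0.97 ± 0.02 or 1.96-fold (adjusted p 0.00242). All 3 uptake receptors were therefore higher in heart on each array, by very different amounts.

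The 3 chains of C1q, which together form the molecule that binds antibody complexes and dying cells and starts the classical complement pathway, were also higher in heart. C1qa was at 0.46 on array 1 and 0.43 on array 2, a mean of 0.44 ± 0.02 or 1.36-fold (limma, adjusted p 0.00739). C1qb was at 1.28 and 1.22, a mean of 1.25 ± 0.04 or 2.38-fold (adjusted p 0.00212). C1qc was at 1.35 and 1.34, a mean of 1.34 ± 0.01 or 2.53-fold (adjusted p 0.00168). C1qb and C1qc lay close together, while the ratio of C1qb exceeded that of C1qa by 0.83 on array 1 and 0.79 on array 2. C1qa and C1qb had 1 probe each. The 2 probes of C1qc were 0.59 apart, and the median gap over all genes with exactly 2 probes was 0.64. Whether the gap between C1qb and C1qa belongs to the genes or to their probes was not tested. In the RefSeq gene table of the GRCr8 assembly the 3 genes are neighbours on chromosome 5, in the order C1qb, C1qc, C1qa, with no other protein-coding gene between them.

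The promoters of this neighbourhood and of the markers at other levels are shown because macrophage genes are known for purine-rich sites of the lineage factor PU.1 close to their start. RefSeq's promoter table for GRCr8 covers 250 bases before to 50 bases after the start and holds 8 of the 10 genes, not C1qc and Fcgr2b. The letters GAGGAA, a purine-rich form of such sites, were searched on both strands, where the other strand reads TTCCTC, and matches are in capitals. Other forms of such sites were not searched. The sequences run 5′ to 3′ on the strand of the gene. They are C1qa (chr5:154419884-154420183, minus strand), C1qb (chr5:154407778-154408077, minus strand), Cd68 (chr10:54882392-54882691, minus strand) and Lyve1 (chr1:174410928-174411227, minus strand).
C1qa: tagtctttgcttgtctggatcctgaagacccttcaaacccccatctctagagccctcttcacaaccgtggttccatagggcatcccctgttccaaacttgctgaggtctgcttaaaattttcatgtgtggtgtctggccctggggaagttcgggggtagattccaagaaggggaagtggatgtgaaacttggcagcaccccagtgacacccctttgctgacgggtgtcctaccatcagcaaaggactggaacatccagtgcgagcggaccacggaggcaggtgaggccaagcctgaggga
C1qb: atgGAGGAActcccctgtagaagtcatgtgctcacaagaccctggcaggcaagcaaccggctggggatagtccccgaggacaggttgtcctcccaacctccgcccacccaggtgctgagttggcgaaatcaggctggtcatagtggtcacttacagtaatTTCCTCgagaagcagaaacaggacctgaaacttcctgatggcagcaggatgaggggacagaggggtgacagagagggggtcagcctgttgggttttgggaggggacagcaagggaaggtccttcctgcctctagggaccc
Cd68: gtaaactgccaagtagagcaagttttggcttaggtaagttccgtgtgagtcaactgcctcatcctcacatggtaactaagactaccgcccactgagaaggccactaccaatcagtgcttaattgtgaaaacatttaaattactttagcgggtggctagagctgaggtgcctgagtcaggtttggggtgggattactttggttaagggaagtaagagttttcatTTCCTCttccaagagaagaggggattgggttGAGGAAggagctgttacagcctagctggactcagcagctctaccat
Lyve1: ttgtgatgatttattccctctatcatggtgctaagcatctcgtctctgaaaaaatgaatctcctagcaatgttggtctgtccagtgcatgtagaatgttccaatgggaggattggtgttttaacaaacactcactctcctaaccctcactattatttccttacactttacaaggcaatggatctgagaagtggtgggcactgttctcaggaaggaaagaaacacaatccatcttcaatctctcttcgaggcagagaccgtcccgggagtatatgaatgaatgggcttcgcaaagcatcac
C1qb held the letters once on each strand, beginning 247 and 90 bases before the start, while the window of its neighbour C1qa held none. Cd68, lower in heart, also held them once on each strand, 27 bases before the start and at base 5 after it, and Lyve1, the highest of the 10 genes, had no match. Of the 8 promoters, 5 held the letters (C1qb, Cd68, Cd14, Csf1r and Mrc1), where 27.6% of all 33469 promoters of this length did. The genes with a match thus included those lowest and those higher in heart; a match is a string of letters, not a measured binding site.

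Fcgr2b, the inhibitory receptor for the constant part of antibodies, was at 0.41 and 0.37. Its mean of 0.39 ± 0.03, a 1.31-fold difference, was the smallest among the called genes (limma, adjusted p 0.00995). Fc receptor genes resemble each other in sequence, and whether its 1 probe also binds RNA of a related receptor was not tested.

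Csf1r, the receptor for colony-stimulating factor 1 on which macrophages depend, was the gene that did not pass. It was at -0.05 on array 1 and 0.01 on array 2, a mean of -0.02 ± 0.05 (limma, adjusted p 0.687). The 2 arrays lay on opposite sides of 0, as did its 2 probes, and the values give no direction. That p does not show that heart and mix1 hold the same level.

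The markers Cd68 and Cd14 were lower in heart. Cd68, a glycoprotein of the lysosome and endosome used as a general stain for macrophages, was at -1.21 and -1.22, a mean of -1.22 ± 0.01, which is 2.33-fold lower (limma, adjusted p 0.00182). Cd14, the surface protein that hands bacterial lipopolysaccharide to its receptor, was at -3.81 on each array, a mean of -3.81 ± 0.002, which is 14.0-fold lower (adjusted p 0.0012). That was the 285th lowest mean of the 15613 genes. The ratio of Cd163 exceeded that of Cd68 by 2.98 on array 1 and 3.21 on array 2, so that genes used as markers of the same cell type lay on either side of 0 within each array.

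**Figure D2:**
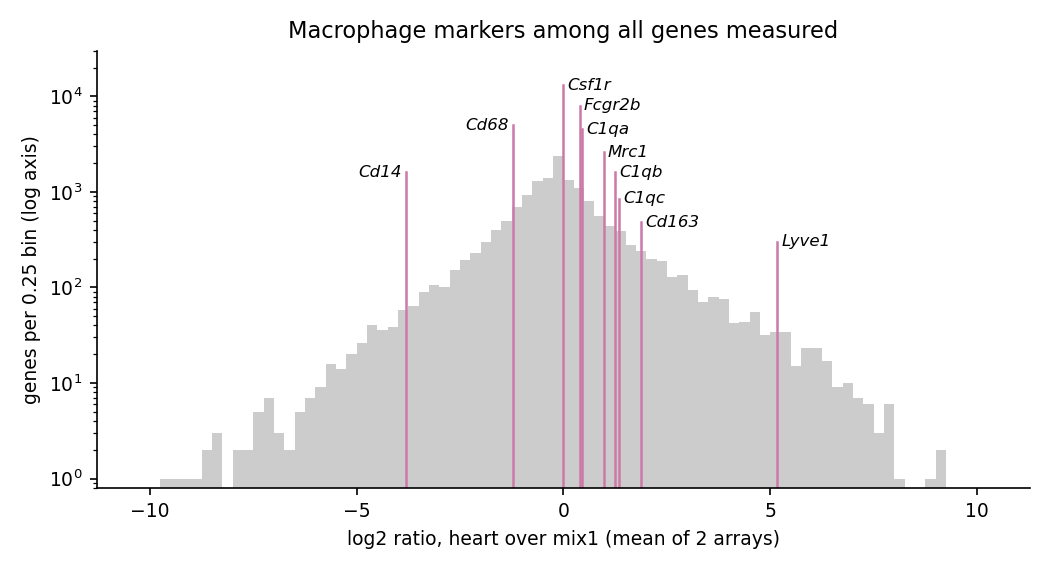
Number of genes (vertical axis, log scale) in bins of 0.25 of the mean log2 ratio of heart over mix1 (horizontal axis) for all 15613 genes. Lines mark the 10 macrophage markers, with heights set for legibility only; Csf1r, Fcgr2b and C1qa lie near the centre of the distribution, and Cd14 and Lyve1 in its tails.

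From the lowest ratio to the highest, the order was Cd14, Cd68, Csf1r, Fcgr2b, C1qa, Mrc1, C1qb, C1qc, Cd163 and Lyve1. The array values of neighbours in this order did not overlap in any of the 9 pairs. In 8 pairs the gap also exceeded the sum of the SDs of both genes. The exception was Fcgr2b and C1qa, 0.05 apart, which did not differ beyond their spread. The SD of a gene with 2 probes was taken after averaging, where opposite differences between arrays partly cancel. For C1qc, 0.09 above C1qb, the SD was 0.01, while its 2 probes had SDs of 0.06 and 0.05. That this pair passed therefore rests on the averaging. Probes of the same gene were further apart than the 2 array values of the averaged gene. In 3 pairs (Mrc1 and C1qb, C1qb and C1qc, C1qc and Cd163) the ranges of the probes overlapped. Cd68, Fcgr2b, C1qa and C1qb had 1 probe each and so no range, which limits this comparison. Fcgr2b and C1qa could not overlap in it.

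Of the 16 probes, 11 passed as higher, 3 as lower and 2, both of Csf1r, did not pass (limma over all probes, where 31.5% were higher and 33.7% lower). The 6 genes with 2 probes had gaps between their probes from 0.16 for Csf1r to 2.49 for Lyve1. Each gap was larger than the difference between arrays of the same gene after its probes were averaged. For single probes this did not hold for Csf1r, where 1 probe differed by 0.157 between arrays, beside a gap of 0.156. The median gap was 0.74, beside 0.64 over all 2973 genes with exactly 2 probes. The Lyve1 probes were at 3.92 and 6.42, a 5.63-fold disagreement on size with the same direction. The Mrc1 probes stood at 0.47 and 1.47, those of Cd163 at 1.44 and 2.32, those of C1qc at 1.05 and 1.64, and those of Cd14 at -4.03 and -3.59. Apart from Csf1r, probes of the same gene had the same sign, so the direction of these genes did not rest on the choice of probe, while their size did. The SD between arrays leaves out this gap.

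**Figure D3:**
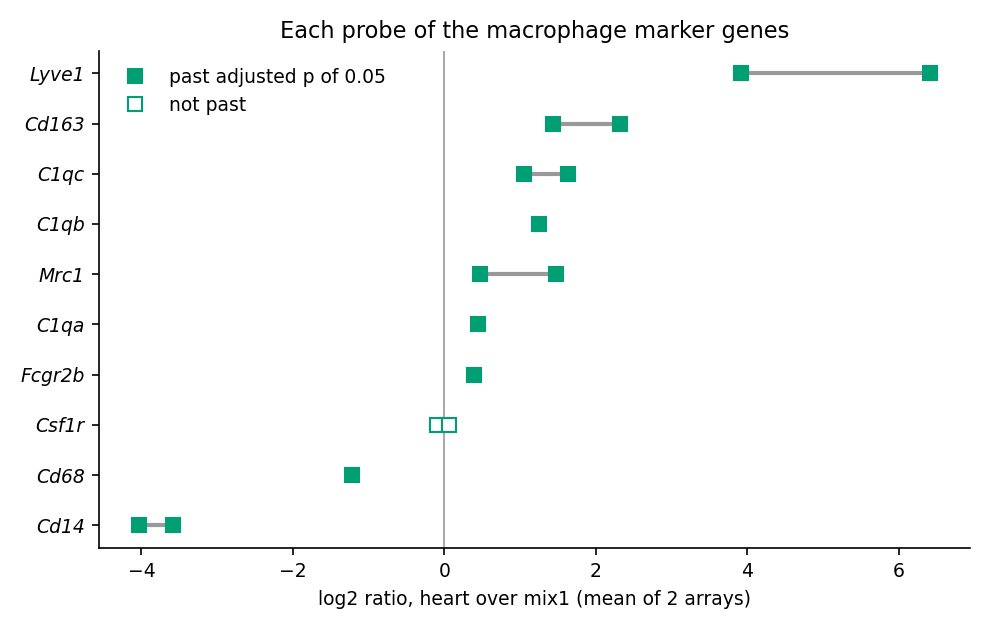
Mean log2 ratio of heart over mix1 (horizontal axis) of each of the 16 probes of the 10 macrophage markers, filled where the probe passed an adjusted p of 0.05 and joined by a line where a gene had 2 probes. The Lyve1 probes, at 3.92 and 6.42, are the furthest apart, and the 2 open squares are the probes of Csf1r.

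The 2 arrays gave nearly the same values for the markers. The absolute difference between arrays had a median of 0.04 over the 10 genes, beside 0.08 over all genes, and 8 of the 10 lay below that value. That comparison is uneven, since averaging probes can lower the difference. Of the 10 markers, 6 had 2 probes, while 2973 of all 15613 genes had exactly 2. Genes of lung epithelium did differ: the 11 genes of that list had a median of -0.21 on array 1 and 3.59 on array 2, with the surfactant gene Sftpc, named after its values were seen, at 0.84 and 6.68. Lung holds macrophages of its own, which line the air spaces. A list of 6 alveolar macrophage genes was higher in heart on both arrays, with medians of 2.96 and 2.80 and all 6 past the test, from Marco at 0.37 and Abcg1 at 1.18 to Car4 at 5.27 and Fabp4 at 6.09. Car4 and Fabp4 are also genes of capillary endothelium. Of the lung list, Slc34a2 (1.91 and 1.62) and Napsa (3.22 and 3.59) were high on both arrays and passed the test, as did Abca3, which was lower (-0.83 and -0.61). With the arrays centred, 8 genes of the lung list passed as higher, in a fit where a gene's own spread did not enter its p-value. The median of the 10 markers was 0.71 on each array as deposited. The median difference between arrays (2 minus 1) was then -0.003 over the 10 genes and -0.004 over all genes. Once the arrays were centred on their medians it was 0.15 over the 10 genes. Centring raises array 2 against array 1 by the same amount for every gene, so that value is not particular to the markers. The part of lung tissue in the marker ratios was not tested.

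**Figure D4:**
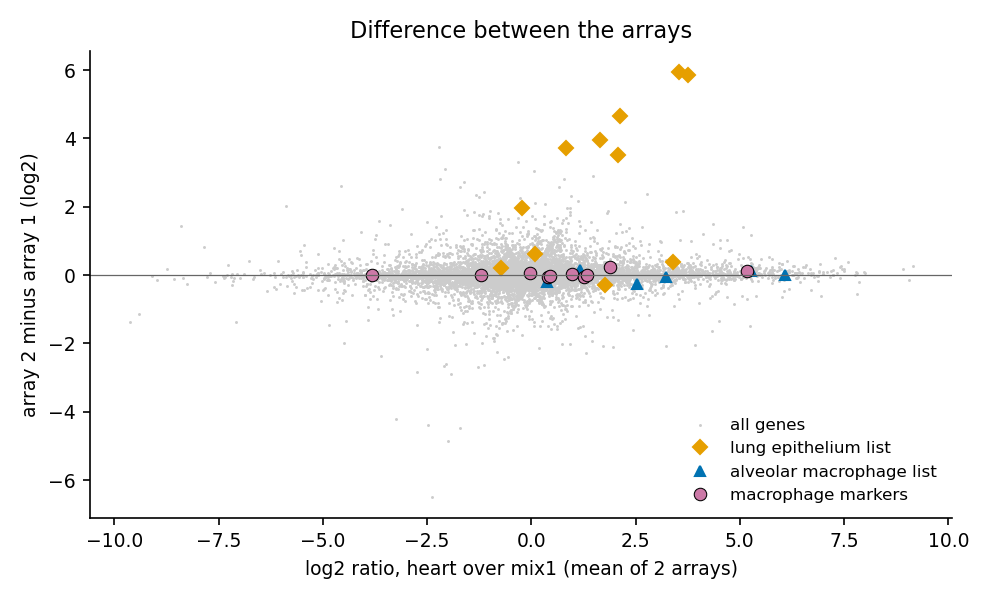
Difference between the arrays (array 2 minus array 1, log2, vertical axis) against the mean log2 ratio of heart over mix1 (horizontal axis) for all genes in grey, the lung epithelium list as diamonds, the alveolar macrophage list as triangles and the 10 macrophage markers as circles. The markers differ by at most 0.22, while several lung genes lie far above it.

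Lists of genes that work with the markers are read here against all genes, of which 31.4% were higher in heart and 41.5% lower. Around Csf1r, 8 of 11 measured genes of its axis and of myeloid transcription factors were lower and 2 higher (median -0.70). Csf1, the ligand of the receptor, was at -3.37 and -3.39, a mean of -3.38 ± 0.01, and Runx1, a factor of blood cell development, at -3.77. Spi1, which encodes PU.1, was higher at 0.72 and 0.64, a mean of 0.68 ± 0.06, and so was Csf2rb, the shared receptor chain for granulocyte-macrophage colony-stimulating factor and related cytokines, at 1.37. Ligand, receptor and lineage factor thus differed, with Csf1 lower, Csf1r not past the test and Spi1 higher.

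Downstream of C1q, the proteases that it activates did not share its direction. C1r was at -1.50 and -1.68 (mean -1.59 ± 0.13) and C1s at -0.94 and -0.93 (mean -0.94 ± 0.01), both lower in heart on each array. Serping1, the inhibitor of these proteases, did not pass at -0.09 (limma, adjusted p 0.146). Over the 25 measured genes of the complement pathway, 8 were higher and 13 lower (median -0.28), or 32% and 52%, near the shares over all genes. The extremes were Cd55, a brake on complement at cell surfaces, at -7.85 and the central component C3 at -3.57 on the lower side, and Cfb (2.67) and Cfd (3.38), the factors of the alternative pathway, on the higher side. Fat cells are a known source of Cfd.

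The receptor complex that works with Cd14 was lower in heart along with it. Tlr4, the receptor for lipopolysaccharide, was at -1.29 and -1.24, its partner Ly96 at -1.16 and -1.46, and the carrier Lbp at -2.50 and -2.73. Of 19 measured genes of lipopolysaccharide recognition, 16 were lower and 1 higher (median -1.17). Il1b (-3.90), an inflammatory cytokine, and Tlr2 (-2.64), a receptor for bacterial lipoproteins, were lowest. Ly86, the gene of a protein that partners another Toll-like family member, was the higher gene at 2.38, and the called gene next below it, Nfkb1, was at -0.21, a call lost when the arrays were centred.

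Among Fc receptors, the inhibitory Fcgr2b was higher in heart, while the activating relatives that passed were lower. Fcgr2a, the rat gene formerly called Fcgr3, was at -2.77 and -2.54, and the high-affinity receptor gene Fcgr1a at -1.31 and -0.98. Fcgr3a was at 0.18 and 0.39 and did not pass (limma, adjusted p 0.073). Fcer1g, the signalling chain that the activating receptors share, was lower at -0.62 and -0.53. Of 13 measured genes of these receptors and their signalling, 10 were lower and 2 higher, the kinases Syk (0.27, not past the test once the arrays were centred on their medians) and Lyn (0.78), with a median of -0.58. The kinase gene Fgr (-1.51) was among the lowest.

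Other scavenger and uptake receptors were divided, with 9 of 23 measured genes higher (39.1%, beside 31.4% of all genes) and 12 lower (52.2%, beside 41.5%) and a median of -0.29. Msr1, the class A scavenger receptor of macrophages, was at -4.41 and -4.58 (mean -4.50 ± 0.12) and Olr1, a receptor for oxidised lipoprotein, at -3.36. Clec10a, a lectin of macrophages and dendritic cells, was at 3.42 and 3.37 (mean 3.40 ± 0.03), and Cd36, a fatty acid transporter that heart muscle and capillaries also express, at 6.44. Of the genes that act with Cd163, the ligand partner Hp was slightly higher at 0.53 ± 0.002, while Hmox1, the enzyme that breaks down the haem so taken up, was lower at -2.58 ± 0.03.

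Of 19 further genes linked to resident macrophages, 10 were higher and 5 lower in heart, with a median of 0.70, close to that of the 10 markers. Ccl24, a chemokine gene, was at 3.68 and 3.91 and the transporter gene Slco2b1 at 3.53 and 3.40, while Ms4a7 was lower at -2.52 and -2.54 and Hmox1 stands in this list as well. Several genes of that list, named here after their values were seen, differed between the arrays by at least 2-fold: F13a1 was at 2.76 and 0.69, Siglec1 at 1.15 and -0.12, Cd209a at 1.38 and 2.88, and Vsig4 at -2.13 and -1.11. The first 3 did not pass the test, and Vsig4 passed narrowly (limma, adjusted p 0.0461).

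Of 23 further genes found in macrophages of most kinds, 8 were higher and 12 lower (median -0.48), or 34.8% and 52.2%, again near the 31.4% and 41.5% of all genes. The oxidase subunit gene Cyba (-2.46) and the lysozyme gene Lyz2 (-1.49) were lowest, and the protease gene Ctss (1.13) and the oxidase component Ncf1 (2.27) highest. Ptprc, the leukocyte common antigen, was at 0.09 and 0.03 and did not pass, and Adgre1, an adhesion receptor used as a general macrophage marker, was at -0.46 and -0.50; both were named after their values were seen. Genes of osteoclast-like and lipid-associated macrophages were nearly all lower in heart, 14 of 16 with 1 higher and a median of -1.79. Spp1, the osteopontin gene, was at -8.74 and macrophage elastase Mmp12 at -8.26, while Apoe was at -0.48. The higher gene was Lpl (3.88), lipoprotein lipase, which heart muscle and fat cells also express. Mix1 also held cultured fibroblasts, and their part in the lower ratios of this list and of the lists above was not tested.

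**Figure D5:**
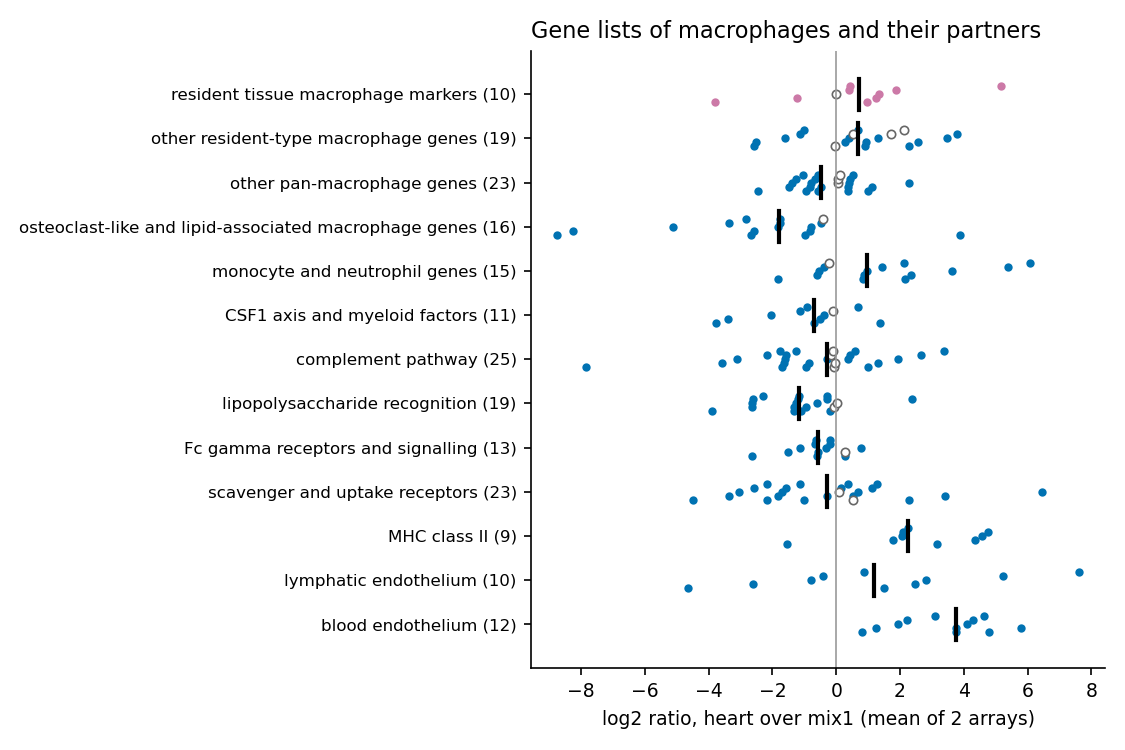
Mean log2 ratio of heart over mix1 (horizontal axis) for the measured genes of each list, whose number is in parentheses; filled points passed an adjusted p of 0.05, open points did not, and black bars are medians. The 10 resident markers and the further resident-type genes have medians of 0.71 and 0.70, and the osteoclast-like and lipid-associated genes of -1.79.

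Other cell types that carry some of the markers also differed between the channels. Lymphatic endothelium expresses Lyve1 and Mrc1, and of its 10 listed genes, 6 were higher and 4 lower, with medians of 1.32 and 1.07 on the 2 arrays and a range from -4.65 to 7.60. Ccl21, the lymphatic chemokine, was at 5.16 and 5.28, close to Lyve1, and Mmrn1, a multimerin of endothelium and platelets, at 7.41 and 7.80. Pdpn, which cultured fibroblasts also express, was at -4.65 and Sema3d at -2.62. Prox1, the factor that sets lymphatic identity, was at 1.50 and 1.53 and was named after its value was seen. All 10 genes of the list passed the test as deposited, Foxc2 (-0.43) no longer when the arrays were centred, and their part in the Lyve1 and Mrc1 ratios was not tested. All 12 blood endothelial genes were higher, from Robo4 (0.82) and Cdh5 (1.24) to Emcn (4.80) and Kdr (5.79), with a median of 3.75.

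Some of the markers are also found on blood and lymphoid cells. Of 15 monocyte and neutrophil genes, 10 were higher and 4 lower (median 0.95), from Lcn2 (-1.82) and Elane (-0.61) to the calprotectin genes S100a8 (5.40) and S100a9 (6.07). B cells carry Fcgr2b, and of 5 measured B cell genes 3 were higher. They were Cr2 (0.27), Ms4a1 (1.36) and Fcrla (1.88), while Blk (-0.19) and Cd79b (-0.14) did not pass. The call of Cr2 was lost when the arrays were centred, although centring raised its ratio. MHC class II genes, which present antigen on macrophages, dendritic cells and B cells, were higher in 8 of 9 cases with a median of 2.24, led by RT1-Bb (4.75) and RT1-Da (4.56), while RT1-DMa was at -1.55 and RT1-Db1 at 1.79. Of 8 T cell genes, 7 were higher, with a median of 2.45, from Lck (0.44) and Cd3d (0.55) to Cd2 (4.34) and Cd3g (6.15). The part of blood cells in the marker ratios was not tested.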

How the data were processed

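Gene expression was measured in 2 rat heart samples on 2-colour Agilent microarrays, each against mix1. Agilent Feature Extraction was used, per the submitters' processing notes; the notes name no version, background correction or dye normalization. The authors' deposited values were read as log2 ratios of the channels, since -11.10 as a log10 ratio would exceed a scanner's range; the base and the direction are inferred, and the columns were not centred (array medians 0.01 and -0.14). Depth does not apply to arrays, and their number limits the precision.

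The platform annotation gave 1 symbol for 20417 probes and none for 19595. Accessions of 16978 probes matched the GRCr8 gene table, through which symbols were updated. Probes were averaged per gene. Genes and, separately, probes were fitted with limma 3.58.1 in R 4.3.3 (intercept, eBayes, two-sided, Benjamini-Hochberg over all features), with 1 residual and 1.24 prior degrees of freedom for genes. Code was tested on simulated data. Protein sequences, planned for the C1q chains, were not used here.

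The members and lists were chosen with earlier results of these data known. From each list, except the cardiac sarcomere and fibroblast lists used for direction, the 2 lowest and 2 highest genes past the test were named (the lung list had 3 in all), and direct partners of the members whatever their values; Il34 and Mrc2 were not among the genes named in the annotation. Alternatives were centring, the log base, the probe chosen, the symbols, the moderation, a 2-fold threshold and leaving out an array.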

Additional observations from a re-analysis of the deposited data

How the results depend on the processing

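All 10 marker genes kept their side of the threshold under each of 5 tested alternatives, 50 of 50 values, and the 9 called genes kept their direction. The alternatives were arrays centred, natural logs, the probe with the smallest difference between arrays, annotation symbols as they stand, and robust moderation. Part of that count was fixed in advance. Natural logs leave every p-value unchanged, and the annotation symbols gave the 10 genes the same probes and ratios. The choice of probe could change the ratio only of genes with 2 probes. Csf1r had adjusted p-values from 0.183 to 0.893 in limma under the 5 alternatives. Its mean was 0.04 with the arrays centred and 0.06 with the probe of smallest difference. The median of the 10 genes moved to 0.77 when the arrays were centred, to 1.02 as natural logs and to 0.46 with the probe of smallest difference, where Mrc1 was at 0.47, Cd163 at 2.32 and Lyve1 at 6.42. Natural logs enlarge every ratio by construction. The median difference between arrays over the 10 genes went from -0.003 to 0.15 after centring. By construction, centring shifts array 2 upward against array 1 by the same amount for every gene. It also raised the mean of every gene, so Cr2 and Syk lost their calls with larger ratios than as deposited. The centred fit of genes had infinite prior degrees of freedom, so a gene's own spread did not enter its p-value. Under it no called gene of the lists changed sign, and F13a1, Siglec1 and Cd209a passed. The Fc receptor list had 1 gene higher and 7 lower in place of 2 and 10. The lipopolysaccharide list had 13 lower in place of 16. The lung epithelium list had 8 higher in place of 2, Sftpc among those added, although its arrays stood at 0.84 and 6.68. Among the 10 markers as deposited, requiring at least 2-fold as well gave 4 higher genes in place of 7. Mrc1 joined them with the arrays centred or as natural logs. Without either array the median was 0.71, with 1 array left and no test, so counts of calls could not be given. No paired analysis was possible because the series has 1 group of samples, each set against the same control. Fits over all probes under centring, natural logs and robust moderation were chosen after seeing the data and called 25089, 26056 and 25655 of 40012 probes, beside 26056.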
